A study of Danio rerio with 24 samples.

Results

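The genes described are 4 of the 31087 distinct gene identifiers of a zebrafish RNA-seq table. They encode enzymes of glycolysis or of its control, and were chosen with earlier results of these data known. They are PFKFB3 (ENSDARG00000001953), PFKFB4 (ENSDARG00000029075), GPI (ENSDARG00000012987) and ALDOA (ENSDARG00000011665). All larvae carried Tg(sqET20), an enhancer trap whose GFP is known to mark mantle cells of the lateral line neuromasts, and were used at 5 days post fertilization. Larvae were bathed in 300 µM neomycin, an antibiotic that kills lateral line hair cells, for 30 min and collected 1, 3 or 5 h later, or were mock treated and collected at 1 h. Cells from pooled larvae were sorted into GFP+ and GFP- fractions of about 30000 living cells per library, which gave 24 libraries in 8 groups of 3. The values are FPKM, fragments scaled by transcript length and library total, so that levels can be set side by side between genes. There was no mock group at 3 or 5 h, and the mock and 1 h libraries are labelled with an earlier month than the 3 h and 5 h libraries. Changes at 3 h and 5 h therefore cannot be told apart from that date label, whereas 1 h against mock, and 5 h against 3 h, share a date.

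Glycolysis converts glucose to pyruvate. GPI interconverts the phosphates of glucose and fructose, and aldolases such as ALDOA split fructose bisphosphate into 3-carbon sugars. Between those steps phosphofructokinase commits the sugar to the pathway. PFKFB enzymes make and break down a signalling sugar that is a strong activator of phosphofructokinase. In mammals PFKFB3 is the isoform in which synthesis of that activator most outweighs its breakdown, and PFKFB3 and PFKFB4 are both known as genes induced by low oxygen.

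The libraries held 16621 to 19598 identifiers at 1 FPKM or more, and FPKM sums lay between 1147539 and 1601861. Relative depth, estimated from the step between the smallest values of each library, ranged from 0.732 to 1.257. The sort was reflected in marker genes. The summed FPKM of 14 lateral line and supporting cell markers was 3145 to 6689 in GFP+ libraries, against 279 to 448 in GFP- libraries, and that of 14 hair cell markers was 1382 to 3771 in GFP+ libraries, against 65.1 to 157 in GFP- libraries. The GFP+ libraries also carried epidermal markers (12 genes, 9160 to 14700, against 629 to 1062 in GFP- libraries). The GFP- libraries carried blood markers (23 genes, 24140 to 49650, against 227 to 1314 in GFP+ libraries). In such bulk samples, fewer cells of a type and less RNA per cell cannot be told apart. All 4 genes exceeded 1 FPKM in all 24 libraries, the lowest value being 2.11 FPKM for PFKFB3.

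PFKFB3 was low in GFP+ mock libraries, far higher at 1 h and lower again at 3 h, where the date label differs too. Its level in GFP+ mock libraries was 2.95, 3.51 and 2.11 FPKM. At 1 h after neomycin GFP+ cells had 48.3, 35.8 and 37.7 FPKM, at 3 h 10.5, 4.77 and 6.95 FPKM, and at 5 h 5.22, 5.22 and 3.27 FPKM. Every 1 h and 3 h library lay above every mock library, whereas the 5 h libraries overlapped the mock range. In GFP- cells the same gene had 6.24, 8.65 and 7.03 FPKM in mock, 11.7, 16.1 and 12.9 FPKM at 1 h, 15.2, 8.83 and 10.998 FPKM at 3 h, and 8.78, 13.3 and 8.38 FPKM at 5 h. The GFP- libraries at 1 h and 3 h were thus also above all 3 GFP- mock libraries, though by far less. How many of all tested genes lay apart in this way was not counted. Lack of overlap is therefore given here and below as a description only.

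The mean PFKFB3 level of GFP+ cells at 1 h was 40.6 ± 6.73 FPKM, against 2.85 ± 0.702 FPKM in mock (SD, n = 3 each), a ratio of 14.2. On the log2(FPKM + 1) scale this was a change of 3.44 ± 0.25 (SE; limma adjusted p = 1.11e-08), the 66th highest of 21860 genes tested. At 3 h PFKFB3 was still higher than in mock, by 1.09 ± 0.25 (adjusted p = 0.00271, limma), and lower than at 1 h by 2.35 on the log2 scale (3 h minus 1 h, -2.35 ± 0.25, limma adjusted p = 1.19e-06). With only the 6 libraries of the 3 h comparison in the model, the 3 h change against mock no longer passed (adjusted p = 0.0592, limma). At 5 h the change of 0.53 ± 0.25 did not pass (adjusted p = 0.155, limma). In GFP- cells the changes of PFKFB3 were 0.81 at 1 h, 0.59 at 3 h and 0.41 at 5 h, and none passed (limma adjusted p = 0.0887, 0.187 and 0.505 in that order of time). With quantile scaling the 1 h change in GFP- cells was 0.88 (adjusted p = 0.0489, limma).

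**Figure D1:**
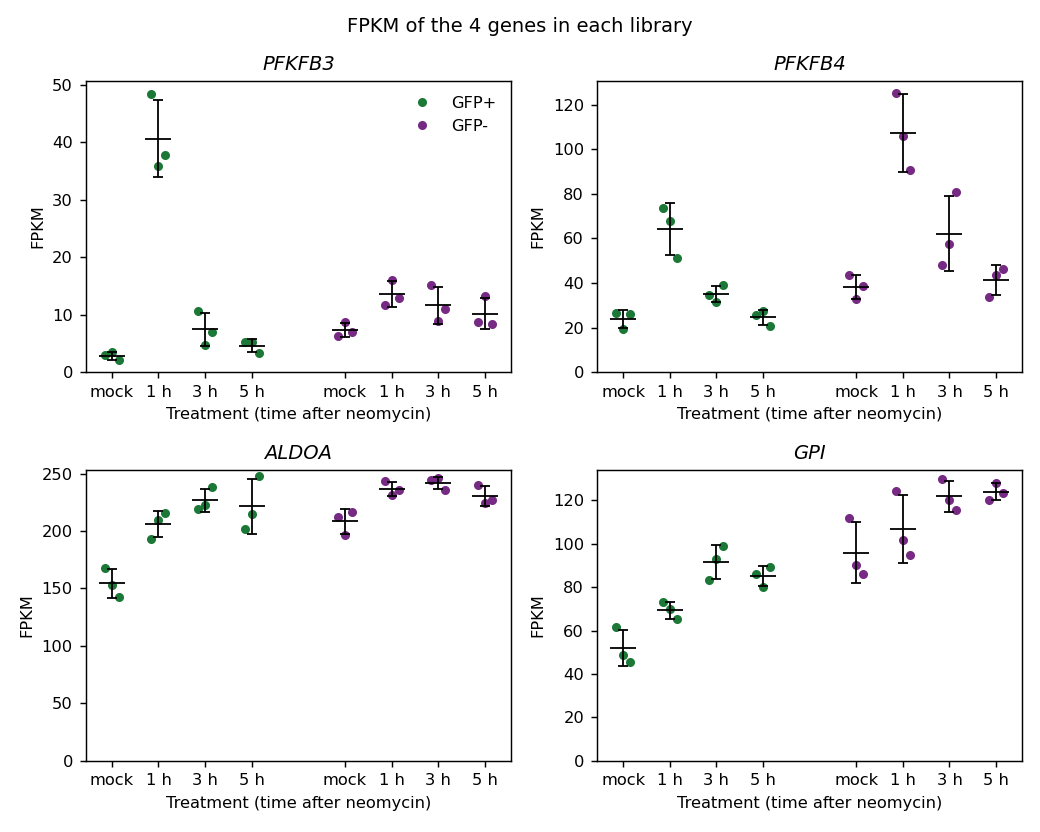
FPKM of PFKFB3, PFKFB4, ALDOA and GPI in each of 24 libraries (points, 3 per group), with the group mean and SD as bars, for GFP+ cells (left) and GFP- cells (right) in mock and 1, 3 and 5 h after neomycin. PFKFB3 in GFP+ cells at 1 h, at 35.8 to 48.3 FPKM, stands above every other group, whereas PFKFB4 peaks at 1 h in both fractions.

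PFKFB4, the most abundant PFKFB gene in the table, rose at 1 h in both fractions. GFP+ cells had 26.3, 19.3 and 26.2 FPKM in mock, 73.7, 67.7 and 51.1 FPKM at 1 h, 34.7, 31.6 and 39.0 FPKM at 3 h, and 25.7, 27.4 and 20.7 FPKM at 5 h. The GFP- values were 43.6, 32.6 and 38.5 FPKM in mock, 125, 106 and 90.5 FPKM at 1 h, 48.1, 57.5 and 81.0 FPKM at 3 h, and 33.8, 43.6 and 46.5 FPKM at 5 h. In both fractions the 1 h and 3 h libraries lay above the mock libraries without overlap, and the 5 h libraries overlapped them.

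At 1 h the mean level of PFKFB4 was 2.68 times that of mock in GFP+ cells and 2.80 times that of mock in GFP- cells. The log2 changes were 1.38 ± 0.19 (adjusted p = 1.92e-05) in GFP+ cells and 1.46 ± 0.19 (adjusted p = 3.17e-04) in GFP- cells by limma. At 3 h the GFP+ change was 0.54 ± 0.19 (limma adjusted p = 0.0433). That call rested on single libraries: without GFP+ mock replicate 2 the change was 0.40 (adjusted p = 0.187, limma), and it also missed the threshold under both alternative scalings. In GFP- cells the 3 h change of 0.66 had a limma adjusted p of 0.0572. By 5 h the changes were 0.04 in GFP+ cells and 0.10 in GFP- cells (adjusted p = 0.935 and 0.885, limma). PFKFB4 in GFP+ cells was lower at 3 h than at 1 h by 0.84 on the log2 scale (-0.84 ± 0.19, limma adjusted p = 0.00219).

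The other members of the PFKFB family did not follow in GFP+ cells. pfkfb2a (ENSDARG00000023840), a paralog of the same bifunctional enzyme, fell in GFP+ cells at 1 h to a mean of 1.22 FPKM, against 3.74 FPKM in mock, a log2 change of -1.09 ± 0.13 (limma adjusted p = 4.39e-06). It was back at 3.86 FPKM at 3 h (0.03, adjusted p = 0.916, limma). PFKFB2 (ENSDARG00000002037) differed by -0.35 at 1 h (adjusted p = 0.0516) and fell by 0.42 on the log2 scale at 3 h (adjusted p = 0.0228, limma). In GFP- cells PFKFB2 had 3.85, 3.55 and 4.14 FPKM at 1 h, against 3.31, 2.61 and 2.86 FPKM in mock. Those libraries did not overlap, but the change did not pass. pfkfb1 (ENSDARG00000037140) changed by -0.24 and pfkfb4a (ENSDARG00000055540) by -0.08 in GFP+ cells at 1 h (adjusted p = 0.226 and 0.719, limma), and neither passed at any time in either fraction.

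Tigar is a phosphatase that acts on the same activator. Of the 8 PFKFB and Tigar genes 2 rose, 1 fell and 5 did not pass in GFP+ cells at 1 h, when 13.9% of all tested genes rose and 19.1% fell. At 3 h, when 19.9% of all genes rose and 8.15% fell, 3 of the 8 rose and 1 fell, the third riser being tigarb (ENSDARG00000045858), at 4.42 FPKM against 3.00 FPKM in mock (0.44 ± 0.16, limma adjusted p = 0.0428). With median-of-ratios or quantile scaling, only PFKFB3 of these risers passed at 3 h. At 5 h in GFP+ cells 0 of 8 passed with limma (2 had an unadjusted p under 0.05), where 19.2% of all genes were called. tigara (ENSDARG00000051749) had 2.00 FPKM at 1 h against 2.31 FPKM in mock (-0.15, adjusted p = 0.563, limma). In GFP- cells 1 of 8, PFKFB4, rose at 1 h, where 1.88% of all genes rose.

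The make-up of the PFKFB transcript pool shifted accordingly. PFKFB3 and PFKFB4 together made up 87.0% to 90.3% of the summed FPKM of 6 PFKFB identifiers in GFP+ cells at 1 h, against 56.8% to 63.3% in GFP+ mock. PFKFB3 alone accounted for 31.1% to 36.9% of that sum at 1 h, against 4.62% to 8.72% in mock. In GFP- cells the pair made up 82.4% to 86.1% at 1 h, against 69.4% to 70.1% in mock, with PFKFB3 alone at 7.36% to 11.2% at 1 h, against 8.75% to 14.7% in mock. PFKFB4 exceeded PFKFB3 by a factor of 1.36 to 1.89 in GFP+ cells at 1 h, against 5.51 to 12.4 in GFP+ mock. The same ratio in GFP- cells was 6.58 to 10.7 at 1 h, against 3.77 to 6.99 in mock. PFKFB3 thus made up more of the pool in GFP+ than in GFP- libraries at 1 h, without overlap, and less of it in GFP+ mock than in GFP- mock.

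**Figure D2:**
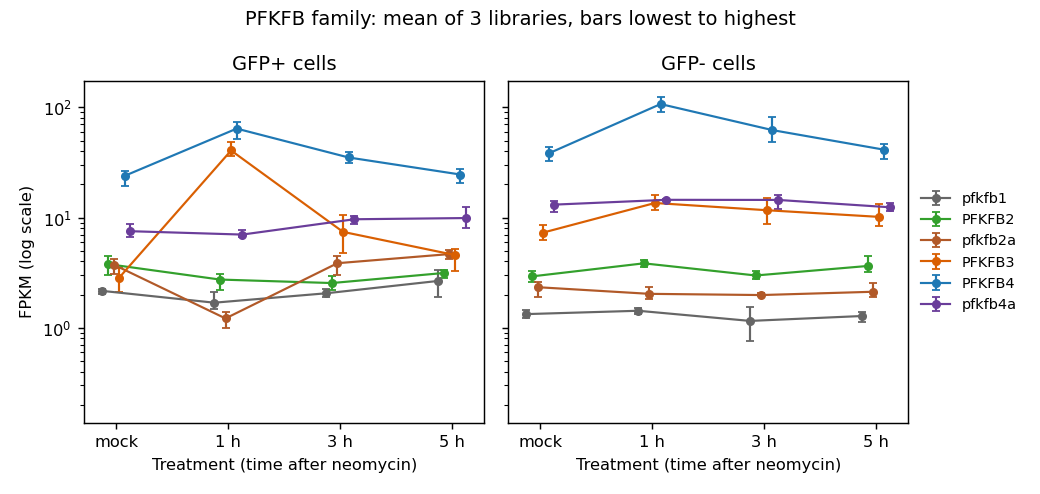
FPKM (log axis) of the 6 PFKFB identifiers in GFP+ cells (left) and GFP- cells (right) in mock and 1, 3 and 5 h after neomycin; points are means of 3 libraries and bars span the lowest to the highest library. In GFP+ cells at 1 h PFKFB3 reaches 40.6 FPKM and pfkfb2a drops to 1.22 FPKM, whereas PFKFB4 leads in every group.

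GPI rose in GFP+ cells at all 3 times. Its mean was highest at 3 h, but the 3 h and 5 h libraries overlapped (5 h minus 3 h, -0.10, limma adjusted p = 0.773). Its levels in GFP+ cells were 61.5, 48.6 and 45.8 FPKM in mock, 73.2, 69.9 and 65.4 FPKM at 1 h, 83.2, 92.9 and 99.0 FPKM at 3 h, and 86.1, 80.3 and 89.5 FPKM at 5 h. Every neomycin library was above every mock library. GFP- cells had 112, 90.0 and 85.9 FPKM in mock, 125, 102 and 94.8 FPKM at 1 h, 130, 120 and 116 FPKM at 3 h, and 120, 128 and 124 FPKM at 5 h, with overlap between 1 h and mock.

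The GPI changes in GFP+ cells were 0.42 ± 0.12 at 1 h, 0.82 ± 0.12 at 3 h and 0.72 ± 0.12 at 5 h on the log2 scale (limma adjusted p = 0.00907, 4.41e-05 and 3.06e-04 in that order). The 1 h call was lost without GFP+ mock replicate 3 (0.34, adjusted p = 0.0557, limma) and with quantile scaling (0.24, adjusted p = 0.15). From 1 h to 3 h the level in GFP+ cells increased further, by 0.39 ± 0.12 (limma adjusted p = 0.0141). That increase did not pass with median-of-ratios scaling (0.14, adjusted p = 0.428, limma) or without replicate 3 of the GFP+ 1 h or 3 h group (0.35 and 0.34, adjusted p = 0.0512 and 0.0635, limma). In GFP- cells the changes were 0.15, 0.35 and 0.37 at 1, 3 and 5 h, and none passed (limma adjusted p = 0.575, 0.0999 and 0.139).

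ALDOA, the most abundant of the 4 genes, also rose in GFP+ cells at all 3 times. Its ratio of means to mock was close to that of GPI at 1 h (1.33 and 1.34). At 3 h and 5 h it was smaller (1.47 against 1.77 and 1.43 against 1.64), a comparison that was not tested. GFP+ cells had 168, 153 and 143 FPKM in mock, 193, 210 and 215 FPKM at 1 h, 219, 222 and 238 FPKM at 3 h, and 202, 215 and 248 FPKM at 5 h. The GFP- values were 212, 197 and 217 FPKM in mock, 243, 231 and 235 FPKM at 1 h, 244, 246 and 236 FPKM at 3 h, and 241, 224 and 227 FPKM at 5 h. In both fractions every neomycin library lay above every mock library, but the span in GFP- cells was narrow. The share of all tested genes that lay apart likewise was not counted, so this is no evidence of a rise in GFP- cells.

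The log2 changes of ALDOA in GFP+ cells were 0.41 ± 0.08, 0.55 ± 0.08 and 0.51 ± 0.08 at 1, 3 and 5 h (limma adjusted p = 3.33e-04, 3.07e-05 and 1.20e-04), which correspond to ratios of the means of 1.33, 1.47 and 1.43. In GFP- cells they were 0.18, 0.21 and 0.15 (limma adjusted p = 0.236, 0.119 and 0.429). ALDOA did not differ beyond the threshold between 3 h and 1 h in GFP+ cells (0.14, adjusted p = 0.187, limma).

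Paralogs of ALDOA were examined beside it, in GFP+ cells unless stated otherwise. ALDOC (ENSDARG00000019702), the isoform known from brain, rose at 1 h to 38.9 FPKM, against 24.8 FPKM in mock (0.62 ± 0.12, limma adjusted p = 4.23e-04). It did not pass at 3 h (0.32, adjusted p = 0.0514) or 5 h (0.16, adjusted p = 0.405, limma). In GFP- cells this ALDOC identifier had 162, 160 and 146 FPKM at 1 h, against 117, 128 and 117 FPKM in mock. Those libraries did not overlap, but the 1 h change did not pass. The GFP- libraries at 3 h and 5 h also lay above mock. A further ALDOA identifier (ENSDARG00000034470) stayed near 2.02 FPKM at 1 h against 2.13 FPKM in mock (-0.06, adjusted p = 0.908, limma), and a further ALDOC identifier (ENSDARG00000057661) had 0.190 FPKM at 1 h against 0.0812 FPKM in mock (0.13, adjusted p = 0.858, limma).

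The 4 genes were chosen with earlier results of these data known, so setting them beside all genes is a description and not a test. Read against the whole table, the 4 genes were called as follows. In GFP+ cells at 1 h all 4 rose, where 33% of the 21860 tested genes were called, 13.9% higher and 19.1% lower. At 3 h again all 4 rose, where 28.1% of genes were called, 19.9% higher and 8.15% lower. At 5 h 2 of 4 (GPI and ALDOA) rose, where 19.2% were called, 15.1% higher and 4.09% lower. In GFP- cells 1 of 4 (PFKFB4) rose at 1 h, where 2.7% of genes were called, 1.88% higher and 0.823% lower. At 3 h in GFP- cells 0 of 4 passed with limma although 4 had an unadjusted p under 0.05, and 4.42% of genes were called, 2.31% higher and 2.11% lower. At 5 h in GFP- cells 0 of 4 passed with limma, 1 had an unadjusted p under 0.05, and 1.04% of genes were called, 0.48% higher and 0.563% lower. The GFP- counts changed when single libraries were left out, which also leaves fewer libraries in a group. They were 225 genes at 1 h without GFP- 1 h replicate 1, against 591 with all libraries, 268 at 3 h without GFP- 3 h replicate 3, against 966, and 67 at 5 h without GFP- 5 h replicate 2, against 228. Leaving out other GFP- libraries of the comparison also lowered them by over 1.5 times in several cases.

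In GFP+ cells PFKFB3 and PFKFB4 were lower at 3 h than at 1 h, and GPI was higher, where 35.8% of genes were called, 26.9% higher and 8.98% lower. Between 5 h and 3 h in GFP+ cells 0 of 4 passed with limma (2 with an unadjusted p under 0.05), where 1.78% of genes were called, 1.07% higher and 0.714% lower (389 genes, and 89 without GFP+ 3 h replicate 1). In GFP- cells 0 of 4 and 0 of all genes passed between 5 h and 3 h with limma, and 1 of the 4 had an unadjusted p under 0.05. The share of higher among the called genes depended on scaling. At 3 h against mock in GFP+ cells it was 71.0%, and 48.3% with median-of-ratios and 51.2% with quantile scaling. At 5 h it was 78.7%, 50.01% and 57.7% in the same order, and for 3 h against 1 h 74.9%, 49.7% and 57.0%. In GFP- cells it was 69.5% at 1 h and 83.8% with median-of-ratios scaling, and at 5 h 46.1%, 62.3% and 62.7%.

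The median log2 change of all tested genes in GFP+ cells was -0.07 at 1 h, 0.11 at 3 h and 0.10 at 5 h, and the 2 alternative scalings put the 3 h median at 0.00. Relative to that median, the 3 h changes were 0.98 for PFKFB3, 0.43 for PFKFB4, 0.71 for GPI and 0.44 for ALDOA. For 3 h against 1 h the median was 0.15, and the differences relative to it were -2.504 for PFKFB3, -0.99 for PFKFB4, 0.24 for GPI and -0.02 for ALDOA. Median-of-ratios scaling gave 0.14 for GPI and -0.11 for ALDOA there, so subtracting the median does not replace rescaling. The 5 h changes relative to the 5 h median were 0.43 for PFKFB3, -0.06 for PFKFB4, 0.62 for GPI and 0.42 for ALDOA.

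Marker levels moved with several of these results. In GFP+ cells the summed lateral line markers were 3145 to 3634 FPKM at 3 h and 3540 to 4685 FPKM at 5 h, against 5196 to 6689 FPKM in mock. Of those 14 markers 3 fell and 11 did not pass at 3 h, and 2 fell and 12 did not pass at 5 h, with median log2 changes of 0.03 and 0.07, near the all-gene medians of 0.11 and 0.10, so that the lower sum was not shared by most of the list. Of all genes 8.15% fell and 19.9% rose at 3 h, and 4.09% fell and 15.1% rose at 5 h. The hair cell sum was 1382 to 2374 FPKM at 3 h and 1772 to 2418 FPKM at 5 h, against 2845 to 3771 FPKM in mock. At 3 h 3 of 14 hair cell markers fell and 2 rose (median -0.23). Blood markers were at 672 to 1314 FPKM at 3 h and 483 to 1050 FPKM at 5 h, against 227 to 491 FPKM in mock, where 3 of the 23, the hemoglobin genes hbbe3 and 2 HBE1 identifiers, were at 0 in all 3 libraries. Of the 22 blood markers tested 11 rose at 3 h and 6 at 5 h, against 19.9% and 15.1% of all genes.

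Neuron markers in GFP+ cells summed to 45.1 to 62.4 FPKM at 3 h, against 28.9 to 39.7 FPKM in mock (5 of 16 rose, where 19.9% of all genes did). Retina markers summed to 189 to 303 FPKM at 3 h, against 136 to 171 FPKM in mock. Of these 8 markers 0 passed with limma, where 28.1% of all genes did. Skeletal muscle markers summed to 42.6 to 52.0 FPKM at 3 h and 44.2 to 50.8 FPKM at 5 h, against 59.7 to 73.4 FPKM in mock. Of the 16 muscle markers tested 2 fell at 3 h and 5 at 5 h, where 8.15% and 4.09% of all genes fell. In GFP+ cells at 1 h the sums overlapped those of mock, at 5847 to 6293 FPKM for lateral line, 2766 to 3361 FPKM for hair cell and 252 to 645 FPKM for blood markers. Of the 14 lateral line markers 5 fell and 2 rose at 1 h, where 19.1% of all genes fell and 13.9% rose. Their median change was -0.37, against -0.07 for all genes. The GFP- retina sum lay above mock at every time, at 4838 to 5239 FPKM at 1 h, 4758 to 5577 FPKM at 3 h and 4744 to 8660 FPKM at 5 h, against 3026 to 3781 FPKM in mock. Of the 8 retina markers 0 passed with limma in GFP- cells at 1, 3 or 5 h, where 2.7%, 4.42% and 1.04% of all genes did. Their median log2 changes were 0.54, 0.42 and 0.57. The GFP- blood sum was above mock at 3 h and 5 h, at 31610 to 48840 FPKM and 33360 to 49650 FPKM, against 25220 to 29970 FPKM in mock. Of the 22 blood markers tested 3 rose at 3 h and 2 at 5 h in GFP- cells, where 2.31% and 0.48% of all genes rose. The part of these markers in the changes of the 4 genes was not tested.

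**Figure D3:**
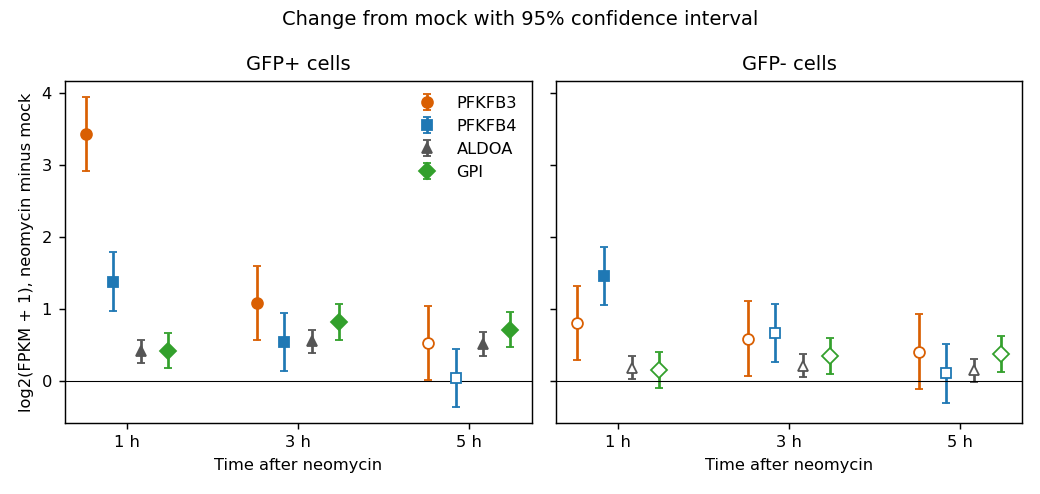
Change from mock in log2(FPKM + 1) of the 4 genes at 1, 3 and 5 h after neomycin in GFP+ cells (left) and GFP- cells (right), with unadjusted 95% confidence intervals; filled symbols passed an adjusted p of 0.05 and open symbols did not. PFKFB3 at 1 h in GFP+ cells, at 3.44, is the largest of the 24 values shown, and the PFKFB4 values at 1 h, 1.38 in GFP+ and 1.46 in GFP- cells, lie close together.

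Whether a change differed between the fractions was tested directly, as the GFP+ change minus the GFP- change. For PFKFB3 at 1 h this difference was 2.63 ± 0.35 (95% confidence interval 1.90 to 3.36, limma adjusted p = 6.66e-05). PFKFB3 was the 1 of 4 genes that passed, where 14.1% of all genes did, 7.65% higher and 6.45% lower. For PFKFB4 the difference at 1 h was -0.08 with an interval from -0.65 to 0.50 (adjusted p = 0.909, limma). Differences as large as -0.65 or 0.50 are within the interval, so equal responses were not shown.

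For ALDOA the differences were 0.23, 0.34 and 0.37 at 1, 3 and 5 h, with intervals from 0.004 to 0.46, from 0.11 to 0.57 and from 0.14 to 0.60 (limma adjusted p = 0.185, 0.0753 and 0.0766). For GPI they were 0.27, 0.47 and 0.34 (limma adjusted p = 0.347, 0.108 and 0.304). The rise of both enzymes in GFP+ cells was thus not shown to differ from the change in GFP- cells. Without the 4 GFP+ libraries numbered 1, the ALDOA differences were 0.34, 0.42 and 0.49 (limma adjusted p = 0.0449, 0.0357 and 0.0284) and the GPI difference at 3 h was 0.66 (adjusted p = 0.0407, limma). Other processing settings went the other way. Their lowest values were 0.07, 0.15 and 0.15 for ALDOA and 0.28 for GPI at 3 h, and these did not pass. At 3 h and 5 h 0 of 4 genes passed with limma (2 and 1 with an unadjusted p under 0.05), where 6.22% of genes passed at 3 h (5.4% higher, 0.819% lower) and 2.82% at 5 h (2.59% higher, 0.233% lower). Of those calls 86.8% at 3 h and 91.7% at 5 h were higher, and 54.8% and 57.6% with median-of-ratios and 57.5% and 66.3% with quantile scaling. The median difference of all genes was 0.12 at 3 h and 0.16 at 5 h. Relative to it the differences were 0.37 and -0.04 for PFKFB3, -0.25 and -0.22 for PFKFB4, 0.34 and 0.18 for GPI, and 0.21 and 0.21 for ALDOA. The PFKFB3 difference was 0.50 at 3 h (adjusted p = 0.455) and 0.12 at 5 h (adjusted p = 0.901, limma).

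In mock larvae all 4 genes were lower in GFP+ than in GFP- cells, where 69.7% of all tested genes were called, 48% lower and 21.7% higher. PFKFB3 averaged 2.85 ± 0.702 FPKM in GFP+ cells and 7.31 ± 1.23 FPKM in GFP- cells (SD, n = 3 each), a log2 difference of -1.11 ± 0.25 (limma adjusted p = 5.44e-04). GPI averaged 51.9 ± 8.39 FPKM in GFP+ cells and 96.0 ± 14.03 FPKM in GFP- cells (-0.88 ± 0.12, limma adjusted p = 2.41e-06). PFKFB4 averaged 24.0 ± 4.02 FPKM in GFP+ cells and 38.2 ± 5.53 FPKM in GFP- cells (-0.66 ± 0.19, limma adjusted p = 0.00546). ALDOA averaged 155 ± 12.6 FPKM in GFP+ cells and 209 ± 10.7 FPKM in GFP- cells (-0.43 ± 0.08, limma adjusted p = 6.23e-05). The median difference of all tested genes was itself -0.35, and 31.1% of the called genes were higher, 46.9% with median-of-ratios and 48.2% with quantile scaling. Relative to that median the differences were -0.76 for PFKFB3, -0.52 for GPI, -0.30 for PFKFB4 and -0.08 for ALDOA. With median-of-ratios scaling the PFKFB4 and ALDOA differences no longer passed (-0.28 and -0.04, limma adjusted p = 0.229 and 0.681). The fractions also differ in the marker lists given above, whose part in these differences was not tested.

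At 1 h after neomycin PFKFB3 was higher in GFP+ cells. Its mean of 40.6 FPKM in GFP+ cells stood against 13.6 FPKM in GFP- cells, a log2 difference of 1.51 ± 0.25 (limma adjusted p = 2.15e-05), where 70.9% of genes were called, 22.7% higher and 48.2% lower in GFP+ cells. PFKFB4, GPI and ALDOA were lower in GFP+ cells at 1 h, by -0.74, -0.61 and -0.20 (limma adjusted p = 0.00232, 1.49e-04 and 0.0272). The median difference of all genes at 1 h was -0.37, and relative to it the differences were 1.88 for PFKFB3, -0.37 for PFKFB4, -0.24 for GPI and 0.17 for ALDOA. With median-of-ratios scaling PFKFB4 and GPI did not pass at 1 h (-0.34 and -0.21, limma adjusted p = 0.143 and 0.163), and 47.1% of the called genes were higher, against 32.0% without it and 49.9% with quantile scaling. The ALDOA difference at 1 h changed sign with median-of-ratios scaling (0.20, adjusted p = 0.0412), and without GFP+ 1 h replicate 1 it was -0.15 (adjusted p = 0.115, limma).

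At 3 h 3 of 4 genes were lower in GFP+ cells, where 63.9% of genes were called, 40% lower and 23.9% higher. At 5 h it was again 3 of 4, where 62.6% were called, 38.5% lower and 24.1% higher. With quantile scaling 49.7% of the called genes were higher at 3 h and 49.5% at 5 h, against 37.4% and 38.5% without it. PFKFB4 differed by -0.78 at 3 h and -0.72 at 5 h (limma adjusted p = 0.00167 and 0.00315), and GPI by -0.41 and -0.53 (limma adjusted p = 0.00538 and 6.24e-04). PFKFB3 differed by -0.62 at 3 h and -0.996 at 5 h (limma adjusted p = 0.0360 and 0.00169). Its 3 h libraries overlapped between the fractions, and without GFP+ 3 h replicate 2 the 3 h difference was -0.37 (adjusted p = 0.214), without GFP- 3 h replicate 1 -0.43 (adjusted p = 0.178, limma). The ALDOA differences, -0.10 at 3 h and -0.06 at 5 h, did not pass (limma adjusted p = 0.294 and 0.497). The median differences of all genes were -0.19 at 3 h and -0.17 at 5 h. Relative to them the values at 3 h and 5 h were -0.42 and -0.83 for PFKFB3, -0.59 and -0.55 for PFKFB4, -0.22 and -0.37 for GPI, and 0.10 and 0.10 for ALDOA. With median-of-ratios scaling the 3 h differences of GPI and PFKFB3 did not pass (-0.21 and -0.43, limma adjusted p = 0.171 and 0.144).

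Ordered by mean over the 8 groups, PFKFB3 ran from GFP+ 1 h (40.6 FPKM), which did not overlap the next, through GFP- 1 h (13.6), GFP- 3 h (11.7), GFP- 5 h (10.2), GFP+ 3 h (7.42) and GFP- mock (7.31), each overlapping its neighbour, to GFP+ 5 h (4.57) and GFP+ mock (2.85). PFKFB4 was highest in GFP- 1 h (107 FPKM), apart from the next, followed by GFP+ 1 h (64.2) and GFP- 3 h (62.2), which overlapped, and lowest in GFP+ mock (24.0). For GPI the 4 GFP- groups came first, from 124 FPKM at 5 h to 96.0 FPKM in mock. The GFP+ groups followed at 91.7 FPKM for 3 h, 85.3 for 5 h, 69.5 for 1 h and 51.9 for mock, the last 3 apart from one another. For ALDOA the 7 highest groups, from 242 FPKM in GFP- 3 h to 206 FPKM in GFP+ 1 h, each overlapped the next, and GFP+ mock (155 FPKM) lay apart below them.

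The rest of the glycolytic pathway was examined as a list of 39 identifiers, from glucose transporters to lactate transporters, all of which were tested and which include GPI and ALDOA. In GFP+ cells 14 of 39 rose, 4 fell and 21 did not pass at 1 h, with a median change of 0.21 against -0.07 for all genes, of which 13.9% rose and 19.1% fell. The count of fallers was 2 without any 1 of 10 libraries, GFP+ mock replicate 2 and GFP+ 1 h replicate 2 among them. At 3 h 12 rose, 3 fell and 24 did not pass (median 0.15, all genes 0.11), where 19.9% of all genes rose and 8.15% fell. At 5 h 10 rose, 1 fell and 28 did not pass (median 0.14, all genes 0.10), where 15.1% rose and 4.09% fell. With median-of-ratios or quantile scaling 4 of 39 rose at 5 h, and without GFP+ mock replicate 1 the count was 6. At 3 h 1 of 39 fell without GFP+ mock replicate 1 or GFP+ 3 h replicate 1. In GFP- cells 1 of 39 rose at 1 h, 4 at 3 h and 1 at 5 h, where 1.88%, 2.31% and 0.48% of all genes rose (medians 0.23, 0.18 and 0.08, all genes -0.04, 0.00 and -0.03). With quantile scaling 6 rose at 3 h and 3 at 5 h. The GFP- count at 1 h was 0 without GFP- 1 h replicate 1 or 3 or GFP- mock replicate 2, and at 5 h 0 without any 1 of the 3 GFP- mock libraries or GFP- 5 h replicate 3. The GFP- count at 3 h was 1 or 2 without any 1 of the 3 GFP- 3 h libraries or without GFP- mock replicate 2. In GFP- cells 0 of the 39 fell with limma, and 14, 14 and 13 had an unadjusted p under 0.05 in either direction at 1, 3 and 5 h.

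The glucose transporter SLC2A1 (ENSDARG00000007412) had the smallest adjusted p of the list in GFP+ cells at 1 h, with 31.3 FPKM against 10.4 FPKM in mock (1.51 ± 0.16, limma adjusted p = 6.23e-07). The phosphoglycerate kinase gene PGK2 (ENSDARG00000054191) had 98.2 FPKM at 1 h against 55.5 FPKM in mock (0.81 ± 0.11, limma adjusted p = 9.46e-06). The phosphoglycerate mutase gene pgam1a (ENSDARG00000005423) had 57.1 FPKM against 31.0 FPKM in mock (0.86 ± 0.12, limma adjusted p = 2.65e-05). Chosen after their values were seen, 2 further genes stood out at 1 h. The lactate transporter SLC16A3 (ENSDARG00000045051) rose to 18.9 FPKM, against 3.17 FPKM in mock (2.22 ± 0.33, limma adjusted p = 3.25e-05). The phosphofructokinase PFKP (ENSDARG00000028000), the kind of enzyme that the PFKFB product activates, rose to 16.5 FPKM, against 6.98 FPKM in mock (1.17 ± 0.17, limma adjusted p = 3.64e-05).

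Genes of the list that fell in GFP+ cells at 1 h, chosen after their values were seen, included the phosphofructokinase PFKL (ENSDARG00000060504, -0.52, adjusted p = 0.00127), SLC16A1 (ENSDARG00000016963, -0.48, adjusted p = 0.0493) and a lower-expressed SLC16A3 identifier (ENSDARG00000028583, -0.90, adjusted p = 8.46e-04), by limma. SLC16A1 did not pass with median-of-ratios scaling. At 3 h in GFP+ cells PGK2 (0.72 ± 0.11, limma adjusted p = 5.08e-05) and the hexokinase HK1 (ENSDARG00000039452, 0.63 ± 0.10, limma adjusted p = 1.54e-04) were among the leading risers besides GPI and ALDOA. At 5 h the triosephosphate isomerase TPI1 (ENSDARG00000040988, 0.52 ± 0.10, limma adjusted p = 0.00125) and PGK2 (0.42, limma adjusted p = 0.00804) were among the leading risers, and the PGK2 rise at 5 h did not pass with either alternative scaling.

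In GFP- cells the single riser at 1 h was SLC16A3 (ENSDARG00000045051), at 39.5 FPKM against 12.6 FPKM in mock (1.56 ± 0.33, limma adjusted p = 0.0137). The 4 risers at 3 h included HK1 (0.53, adjusted p = 0.00829), the muscle-type phosphofructokinase PFKM (ENSDARG00000014179, 0.60, adjusted p = 0.0222) and SLC16A3 (1.22, adjusted p = 0.0409, limma).

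In mock larvae 48% of all tested genes were lower and 21.7% higher in GFP+ than in GFP- cells. Of the 39, 28 were lower and 4 higher (median difference -0.88, all genes -0.35). With median-of-ratios or quantile scaling, 46.9% or 48.2% of all called genes were higher, and 25 or 23 of the 39 were lower. The strongest were ALDOC (ENSDARG00000019702, 24.8 FPKM in GFP+ and 121 FPKM in GFP- cells, -2.24, limma adjusted p = 7.15e-12), the neuronal-type glucose transporter slc2a3a (ENSDARG00000013295, 1.31 FPKM in GFP+ and 8.45 FPKM in GFP- cells, -1.999, limma adjusted p = 5.52e-09) and the neuron-specific enolase eno2 (ENSDARG00000014287, 1.13 FPKM in GFP+ and 9.13 FPKM in GFP- cells, -2.24, limma adjusted p = 8.60e-09). Neuron markers summed to 28.9 to 39.7 FPKM in GFP+ mock, against 713 to 1032 FPKM in GFP- mock, none of the 16 being at 0 throughout, and their part in these differences was not tested.

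**Figure D4:**
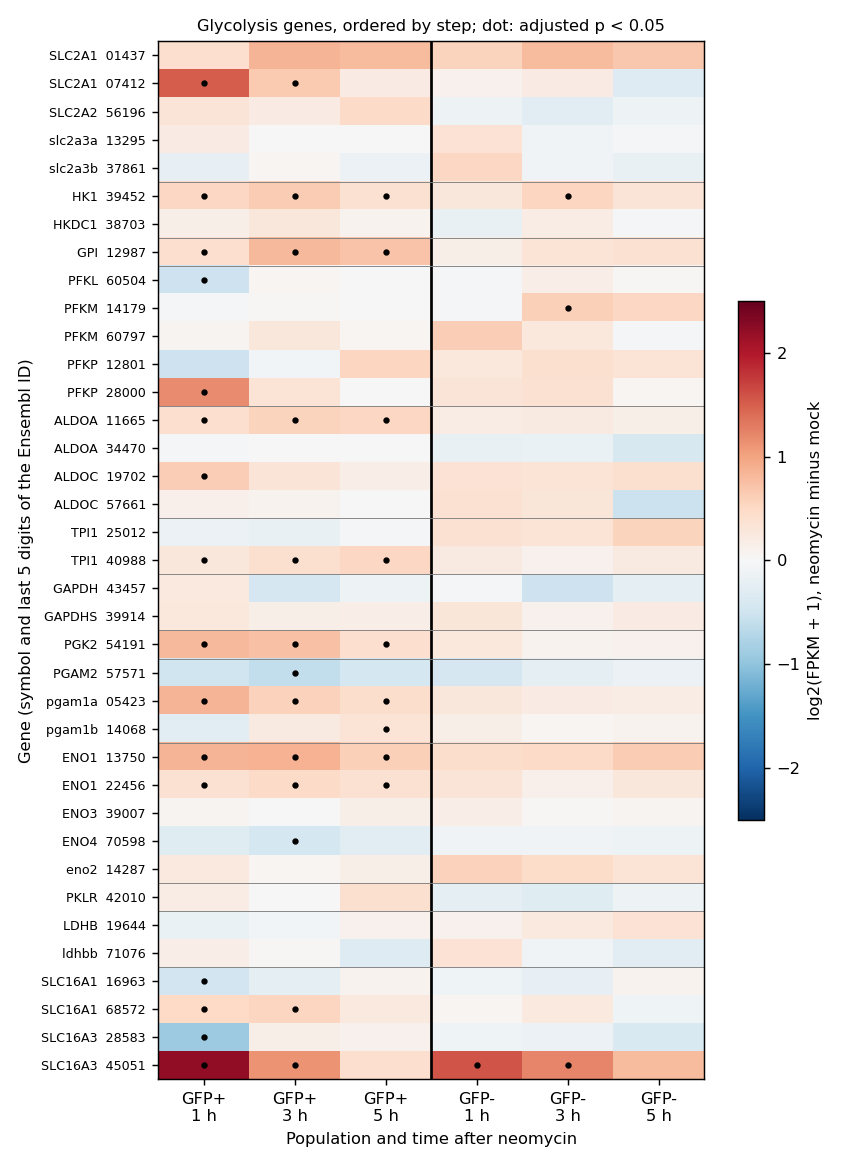
Change from mock in log2(FPKM + 1) (colour) of 37 of the 39 glycolysis identifiers (rows, ordered by step, labelled by symbol and last 5 digits of the identifier) at 1, 3 and 5 h in GFP+ cells (left columns) and GFP- cells (right columns); dots mark an adjusted p under 0.05. The GFP+ columns hold 16, 13 and 9 dots, and the GFP- columns hold 1, 3 and 0; the 2 identifiers not drawn account for the difference from the counts in the text.

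Pathways that branch from or follow glycolysis were read from lists of the same kind. Of 28 genes of the hypoxia response, which includes known activators of PFKFB3 in mammals, 8 rose and 4 fell in GFP+ cells at 1 h, where 13.9% of all genes rose and 19.1% fell. The angiogenic factor VEGFA (ENSDARG00000034700) fell to 3.15 FPKM, against 7.11 FPKM in mock (-0.97, limma adjusted p = 2.21e-05). The oxygen sensor EGLN2 (ENSDARG00000062562) rose to 6.13 FPKM, against 1.70 FPKM in mock (1.46, limma adjusted p = 2.61e-05). The heme oxygenase HMOX1 (ENSDARG00000027529) rose to 12.3 FPKM, against 4.04 FPKM in mock (1.398, limma adjusted p = 0.00756). In GFP- cells, where 1.88% of all genes rose at 1 h, 2 of 28 did, the vasoactive peptide ADM (ENSDARG00000069027, 59.4 against 12.1 FPKM in mock, 2.19, limma adjusted p = 0.0110) and the HIF subunit EPAS1 (ENSDARG00000057671, 0.73, limma adjusted p = 0.0174).

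Of 9 gluconeogenesis genes, whose enzymes run the pathway in reverse, 1 rose and 1 fell in GFP+ cells at 1 h, shares no higher than the 13.9% and 19.1% of all genes. The rate-setting carboxykinase PCK1 (ENSDARG00000013522) rose to 14.3 FPKM, against 2.47 FPKM in mock (2.12 ± 0.36, limma adjusted p = 1.41e-04). The fructose bisphosphatase fbp1a (ENSDARG00000021366), which opposes phosphofructokinase, fell to 42.3 FPKM, against 81.1 FPKM in mock (-0.96 ± 0.19, limma adjusted p = 6.07e-04), and was still lower at 3 h (-0.93) and 5 h (-0.56, limma adjusted p = 0.00112 and 0.0433). PCK1 also rose in GFP- cells at 1 h (1.83, limma adjusted p = 0.00926), together with the glucose phosphatase G6PC1 (ENSDARG00000014967, 1.22, limma adjusted p = 0.00138).

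Among 7 pentose phosphate genes, which draw on the same sugar phosphate as GPI, 1 rose and 2 fell in GFP+ cells at 1 h, and 3 rose at 3 h and 4 at 5 h. Of all genes 13.9% rose and 19.1% fell at 1 h, 19.9% rose at 3 h and 15.1% at 5 h. At 3 h the risers were the isomerase RPIA (ENSDARG00000056640, 15.6 against 7.34 FPKM in mock, 0.99), the transketolase TKTL2 (ENSDARG00000006019, 125 against 80.8 FPKM in mock, 0.63) and the dehydrogenase PGD (ENSDARG00000015343, 33.8 against 17.9 FPKM in mock, 0.89), with limma adjusted p of 5.68e-05, 1.38e-04 and 5.34e-04. PGD had risen at 1 h too (0.80, limma adjusted p = 9.86e-04), when PGLS fell (-0.42, limma adjusted p = 0.0129).

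The tricarboxylic acid cycle list of 19 genes had 3 risers and 1 faller in GFP+ cells at 1 h, 8 and 2 at 3 h, and 9 and 2 at 5 h. Of all genes 13.9% rose and 19.1% fell at 1 h, 19.9% and 8.15% at 3 h, and 15.1% and 4.09% at 5 h. The count of fallers at 1 h was 0 with median-of-ratios and 4 with quantile scaling, so that balance depends on scaling. The succinate dehydrogenase subunits SDHA (ENSDARG00000016721, 0.78 at 1 h and 0.84 at 3 h, limma adjusted p = 8.29e-05 and 5.86e-05) and SDHB (ENSDARG00000075768, 0.51 and 0.67, limma adjusted p = 9.55e-04 and 1.06e-04) rose at both times. Of 16 pyruvate oxidation genes 2 rose and 5 fell at 1 h, among the fallers the kinase PDK1 (ENSDARG00000013128, -0.65, limma adjusted p = 0.00413) and the pyruvate carriers MPC2 (ENSDARG00000024478, -0.32) and MPC1 (ENSDARG00000093448, -0.49, limma adjusted p = 0.00487 and 0.00720). With median-of-ratios scaling 2 of the 16 fell, and with quantile scaling 6.

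Genes whose levels ran most like each of the 4 were found by Pearson's r of log2(FPKM + 1) among 11499 genes, as a description: the libraries share their treatment groups and sorts. Over 24 libraries PFKFB3 ran closest to misp3, SLC25A33 and spag1a (r = 0.959, 0.952 and 0.950), and PFKFB4 to USP2, crema and snrkb (0.958, 0.951 and 0.942). GPI ran closest to CCT7, PPP2R1B and GK3 (0.932, 0.928 and 0.924), and ALDOA to adssl, EIF5A2 and SNRPB2 (0.925, 0.913 and 0.900). Over the 12 GFP+ libraries alone the closest were CYTH1, BRD2 and MARK2 for PFKFB3 (0.989, 0.986 and 0.984) and SGSM1, crema and SPTSSA for PFKFB4 (0.970, 0.969 and 0.967). For GPI they were ube2l3b, YBEY and ALG5 (0.963, 0.963 and 0.962), and for ALDOA PTPN2, HSD17B10 and SNRPB2 (0.979, 0.976 and 0.974). Within each set of libraries the genes named for each of the 4 differed throughout, also between GPI and ALDOA and between PFKFB3 and PFKFB4. Lists this short, drawn from 11499 genes, cannot show whether PFKFB3 ran apart from GPI and ALDOA.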

How the data were processed

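Poly(A)-selected RNA of sorted cells was sequenced, per the labels' protocols. The deposited values are FPKM per Ensembl gene in 24 libraries; CASAVA 1.8.2, TopHat 1.4.1, Cufflinks 1.3 and the build danRer7 are named in the submitters' processing notes, and the annotation release is not given in the sources used here. FPKM give no read counts, so precision rests on the 3 libraries per group, which the labels do not tie to separate cultures or clutches beyond the replicate number; p-values then measure only the spread between these samples. For 112 repeated rows the first was kept. Genes at 1 FPKM or more in at least 3 libraries (21860) were tested as log2(FPKM + 1), which understates changes of low genes, with limma 3.58.1 in R 4.3.3 (trended eBayes, 1 mean per group, all 24 libraries, two-sided, 16 contrasts), with Benjamini-Hochberg adjustment over all tested genes and a threshold of 0.05. The code of the test was run on simulated data with independent normal noise and few changed genes. Those data hold neither the scaling shifts nor the correlations between libraries seen here, so they do not check the calls themselves. Median-of-ratios scaling divided each library by the median ratio to the gene-wise mean profile; quantile scaling equalised the distributions. Genes with near-identical copies, such as PGK, PGAM, ENO1 and TPI1 paralogs, may share reads. The lists held no GPI paralog beside the member, so GPI was read without one. Named genes were the 4 members, the tested PFKFB, Tigar and aldolase paralogs, and the 3 most alike genes per member. The rule also took up to 3 list genes of smallest adjusted p per comparison described. Some genes named by this rule are not reported here. Members and lists were chosen with earlier results of these data known. Replicate numbers were not taken as pairs in the main fit, as no pair of groups had every same-number correlation over 0.1. Between the fractions of 1 treatment and time, all 3 libraries of a group nevertheless correlated best with their own number (0.0238 to 0.142). The same held between GFP+ 1 h and GFP+ mock (0.0783 to 0.2) and between several other pairs of groups. Pairing between fractions or between treatments is thus not excluded, and fits with blocks are given below. Figures were drawn with matplotlib 3.10.9.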

Additional observations from a re-analysis of the deposited data

Results flagged for a closer look

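The following results differed between the fractions by the test of the difference itself, the GFP+ change from mock minus the GFP- change from mock, on the log2(FPKM + 1) scale with limma's adjusted p. At 1 h the difference was 2.63 for PFKFB3 (adjusted p = 6.66e-05), 1.39 for the glucose transporter SLC2A1 (ENSDARG00000007412, adjusted p = 3.29e-04), 0.85 for the phosphofructokinase PFKP (ENSDARG00000028000, adjusted p = 0.0263), 0.57 for pgam1a (adjusted p = 0.0354) and 0.55 for PGK2 (adjusted p = 0.0176). It was -0.96 for pfkfb2a (adjusted p = 0.00198), -0.66 for PFKFB2 (adjusted p = 0.0253) and -0.80 for the SLC16A3 identifier ENSDARG00000028583 (adjusted p = 0.0490). At 3 h it was 0.63 for PGK2 (adjusted p = 0.0183). With quantile scaling PFKFB3, SLC2A1 and pfkfb2a passed and the other named genes did not, and with median-of-ratios scaling the PGK2 difference at 3 h did not pass (adjusted p = 0.113).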

How the results depend on the processing

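Of 2140 alternative values of the 64 changes and differences of the 4 genes, 2030 kept direction and side of the threshold, 67 lost the call, 16 gained it and 27 changed sign. The cause of these shifts was not tested unless the setting itself states it. Many of the alternative values left out a library outside the comparison. There the change itself could not move and only its adjusted p could, so the tally does not count independent checks. The rise of PFKFB3 in GFP+ cells at 1 h and its lower level at 3 h than at 1 h passed under every setting run. No setting separates the latter from the date label. Median-of-ratios scaling gave for 3 h against mock in GFP+ cells 0.37 for PFKFB4 (adjusted p = 0.188), for 5 h -0.13 for PFKFB4, and for 3 h against 1 h 0.14 for GPI and -0.11 for ALDOA. For GFP+ against GFP- it gave -0.28 for PFKFB4 and -0.043 for ALDOA in mock. At 1 h it gave -0.34 for PFKFB4, -0.21 for GPI and 0.20 for ALDOA. At 3 h it gave -0.43 for PFKFB3, -0.21 for GPI and 0.11 for ALDOA, at 5 h 0.11 for ALDOA, and for the difference of changes at 5 h -0.042 for PFKFB3. Quantile scaling gave in GFP+ cells 0.24 for GPI at 1 h, 0.35 for PFKFB4 at 3 h, -0.12 for PFKFB4 at 5 h and 0.27 for ALDOA for 3 h against 1 h. In GFP- cells it gave 0.88 for PFKFB3 at 1 h and 0.70 for PFKFB4 and 0.31 for ALDOA at 3 h. For GFP+ against GFP- it gave -0.43 for PFKFB4 in mock, -0.43 for PFKFB3 and -0.21 for ALDOA at 3 h, and for the difference of changes at 5 h -0.089 for PFKFB3. With the comparison's own groups alone, GPI at 1 h (0.42, adjusted p = 0.0806), PFKFB3 (1.09) and PFKFB4 (0.54) at 3 h in GFP+ cells, and PFKFB3 at 3 h between fractions (-0.62) did not pass. Without a filter, and with the replicate number as a block, PFKFB4 at 3 h (0.54) did not pass (adjusted p = 0.0552 and 0.0531). With a block by sort, ALDOA at 1 h between fractions (-0.20) did not pass (adjusted p = 0.06), and the blocks changed no other call of the 4 genes. Replicate numbers were not taken as pairs in the main fit: same-numbered correlations ran between -0.126 and 0.2. Between the fractions of 1 treatment and time, and between GFP+ 1 h and GFP+ mock, libraries nevertheless correlated best with their own number. Pairing there is not excluded. Without the 4 GFP+ libraries numbered 1, the 3 h change of PFKFB4 was 0.62 (adjusted p = 0.1), the differences of changes of ALDOA were 0.34, 0.42 and 0.49 and that of GPI at 3 h 0.66, and ALDOA between fractions was -0.15 at 1 h and 0.0019 at 5 h, and 0.0045 for 5 h against 3 h in GFP+ cells.

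With a test against a log2 change of 1, the values stay as reported and PFKFB3 at 1 h in GFP+ cells and for 3 h against 1 h passed. These did not: in GFP- cells PFKFB4 at 1 h (1.46); in GFP+ cells PFKFB4 (1.38), GPI (0.42) and ALDOA (0.41) at 1 h, PFKFB3 (1.09), PFKFB4 (0.54), GPI (0.82) and ALDOA (0.55) at 3 h, GPI (0.72) and ALDOA (0.51) at 5 h, and PFKFB4 (-0.84) and GPI (0.39) for 3 h against 1 h. Between fractions they were PFKFB3 (-1.11), PFKFB4 (-0.66), GPI (-0.88) and ALDOA (-0.43) in mock, PFKFB3 (1.51), PFKFB4 (-0.74), GPI (-0.61) and ALDOA (-0.20) at 1 h, PFKFB3 (-0.62), PFKFB4 (-0.78) and GPI (-0.41) at 3 h, PFKFB3 (-0.996), PFKFB4 (-0.72) and GPI (-0.53) at 5 h, and the difference of changes of PFKFB3 at 1 h (2.63).

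Leaving out 1 library at a time gave in GFP+ cells 0.34 to 0.55 for GPI at 1 h, 0.40 to 0.61 for PFKFB4 at 3 h, -0.10 to 0.15 for PFKFB4 at 5 h, 0.34 to 0.46 for GPI for 3 h against 1 h, and -0.12 to 0.028 for ALDOA for 5 h against 3 h. In GFP- cells it gave 0.46 to 0.83 for PFKFB4 and 0.28 to 0.46 for GPI at 3 h, -0.0029 to 0.24 for PFKFB4 at 5 h, and -0.37 to 0.011 for PFKFB3 and -0.012 to 0.071 for GPI for 5 h against 3 h. Between fractions it gave -0.23 to -0.15 for ALDOA at 1 h, -0.87 to -0.37 for PFKFB3 at 3 h and -0.15 to 0.0019 for ALDOA at 5 h. The differences of changes were -0.22 to 0.074 for PFKFB4 at 1 h, -0.29 to 0.082 for PFKFB4, 0.28 to 0.40 for ALDOA and 0.35 to 0.59 for GPI at 3 h, and -0.027 to 0.31 for PFKFB3, -0.21 to 0.050 for PFKFB4 and 0.28 to 0.43 for ALDOA at 5 h. The ALDOA call between fractions at 1 h was also lost without GFP- 1 h replicate 1 or 3 (adjusted p = 0.0808 and 0.052), and the PFKFB3 call at 3 h without GFP+ 3 h replicate 3 or GFP- 3 h replicate 3 (adjusted p = 0.0762 and 0.0605).

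Counts over all genes moved most with the test against a log2 change of 1, which left 251, 41 and 1 genes in GFP+ cells at 1, 3 and 5 h and 1 at each time in GFP- cells. Between fractions it left 4702 in mock and 5211, 4404 and 4211 at 1, 3 and 5 h, against 15236, 15501, 13960 and 13677. For 3 h against 1 h it left 70, against 7836, for 5 h against 3 h 0, against 389, and for the differences of changes 29, 1 and 1. The comparison's own groups gave 3819, 3788 and 1745 genes in GFP+ cells at 1, 3 and 5 h, against 7213, 6139 and 4199, and 96, 60 and 18 in GFP- cells, against 591, 966 and 228. The differences of changes at 3 h and 5 h had 753 and 125 genes with median-of-ratios and 698 and 172 with quantile scaling, against 1360 and 617. Own groups gave 1990 against 3084 and 180 against 617 for the differences at 1 h and 5 h, 4424 against 7836 for 3 h against 1 h, and in GFP+ and GFP- cells 1 against 389 and 7 against 0 for 5 h against 3 h. A pseudocount of 0.1 gave 589 and 133 in GFP- cells at 3 h and 5 h, quantile scaling 926 and 421 at 1 h and 5 h, the block by sort 389 for the difference at 5 h, and leaving out the 4 GFP+ libraries numbered 1 gave 138 for 5 h against 3 h. Leaving out 1 library gave 225 to 767, 268 to 1078 and 67 to 235 in GFP- cells at 1, 3 and 5 h, 754 to 1637 and 231 to 773 for the differences at 3 h and 5 h, and 89 to 519 for 5 h against 3 h in GFP+ cells. FPKM hold no read counts, and 3 libraries per group limit the precision.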
